A study of Homo sapiens with 4 samples.

Results

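The 43 genes described here are DNA repair genes chosen by name from the deposited gene count table, which has 64252 rows. They comprise 19 genes of homologous recombination, 9 of the Fanconi anaemia pathway, 5 of checkpoint signalling and 3 of mismatch repair. The remaining 7 serve end joining, 6 in its classical form and 1, POLQ, in the form that uses polymerase theta. All 43 had a row and all 43 passed the filter on low counts. The libraries came from SK-N-BE(2), an established human neuroblastoma line with amplified MYCN. A hairpin RNA against IGF2BP3 (shIGF2BP3) had been transfected for 2 libraries and a control hairpin (shControl, sh-NC in the design text) for the other 2. IGF2BP3 binds transcripts that carry m6A, a methyl group on adenosine, and the series title names the E2F2 transcript as one of them. The labels name 1 cell line, do not give the hairpin sequence or the time after transfection, and do not say whether replicates were separate cultures. The p-values thus rest on the spread of these 4 libraries alone, part or all of which may be technical.

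A double-strand break in DNA can be repaired by copying the sister chromatid, which is homologous recombination, or by rejoining the ends. BRCA1 and the nuclease complex of MRE11, RAD50 and NBN favour resection of the ends and recombination, while TP53BP1 and the Ku proteins shield ends for classical end joining. The Fanconi proteins unhook crosslinks between strands, mismatch repair removes copying errors, and the kinases ATM and ATR signal damage to CHEK2 and CHEK1. Recombination is used in S and G2 phase, and many of its genes are transcribed under E2F factors, whereas classical end joining works throughout the cell cycle. These libraries measured RNA levels in mixed populations of cells, so fewer cells of a kind and less RNA per cell cannot be told apart. Repair activity and cell cycle phase were not measured.

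Total counts lay between 26755695 and 31946756 per library, and replicates differed by more than counting noise. IGF2BP3 stood at 28.7 and 31.9 CPM in shIGF2BP3 and 156.5 and 138.9 CPM in shControl, where CPM stands for the usual depth-scaled count, with TMM-adjusted library sizes. The fall in the targeted gene was -2.28 on the log2 scale (SE 0.09). Among 9 markers of neuroblastoma cells all were detected, while CD3E and LYZ of leukocytes and KRT5 and KRT14 of epithelium had 0 counts in every library. The neuroblastoma markers summed to 5802 and 6186 CPM in shIGF2BP3 and to 7530.1 and 7814 CPM in shControl, with 7 of 9 lower and 1 higher. The 6 leukocyte markers summed to at most 6.07 CPM in any library (1 lower and 1 higher of 3 tested), and the 6 epithelial markers to at most 7.13 CPM (0 called of 1 tested). The 7 fibroblast markers, of which 1 was lower and 3 higher, summed to 733.2 and 748.6 CPM against 571.9 and 599.6 CPM. The part of these markers in the changes of the repair genes was not tested. Of 19767 genes tested, 51.5% passed edgeR's quasi-likelihood test at a Benjamini-Hochberg adjusted p below 0.05, 25.6% lower and 25.9% higher in shIGF2BP3. This test and threshold stand behind every call below, and fold changes are log2, shIGF2BP3 minus shControl.

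Most of the repair genes fell after knockdown. Of the 43 members 35 fell, 5 rose and 3 did not pass the test, where 25.6% of all tested genes were lower. Among protein-coding genes in the same range of mean CPM 35% were lower and 31.6% higher. The median fold change over the members was -0.96, against 0.01 over all tested genes. At least 2-fold falls were seen in 20 members, where 9.16% of tested genes fell that far, and no member rose 2-fold. Libraries of the groups did not overlap for 41 members, against 74.5% of tested genes. Both knockdown libraries lay below both controls for 36 members, against 36.7% of tested genes, and above them for 5, against 37.8%. The members that rose were LIG4, ATM, TP53BP1, NBN and ATR.

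**Figure D1:**
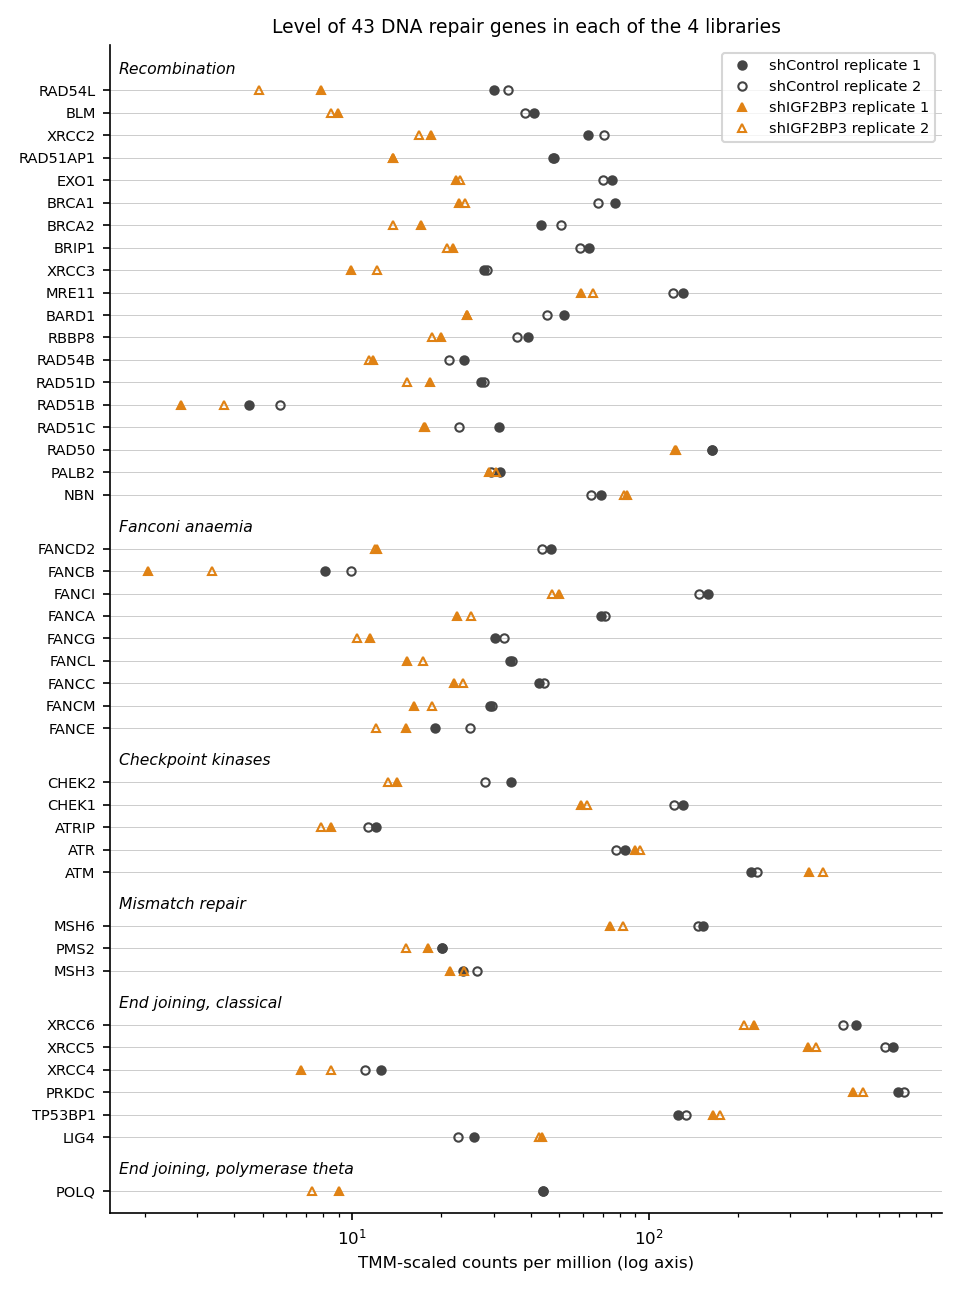
Level of each member in each of the 4 libraries, as TMM-scaled CPM on a log axis, grouped by pathway. Circles are shControl and triangles shIGF2BP3, filled for replicate 1 and open for replicate 2, and the groups overlap only for PALB2 and MSH3.

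Among the members, the pathways differed in how many of their genes fell, with each gene counted in 1 pathway only. All 9 Fanconi genes fell, with a median of -1.52, and 17 of 19 recombination genes fell, with a median of -1.02. Checkpoint genes divided into 3 lower and 2 higher (median -0.51), and classical end joining into 4 lower and 2 higher (median -0.56). In mismatch repair 1 of 3 fell and 2 did not pass (median -0.28). POLQ, alone in its pathway, had the lowest fold change of the 43, at -2.43. The medians are set side by side as descriptions, and no test compared the pathways. Further genes of the same pathways, listed below, did not keep this order. Among these, 13 Fanconi genes had a median of -0.04 and 11 mismatch repair genes one of -1.22. Further recombination, checkpoint and end joining genes had medians of -0.87, -0.41 and -0.16.

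**Figure D2:**
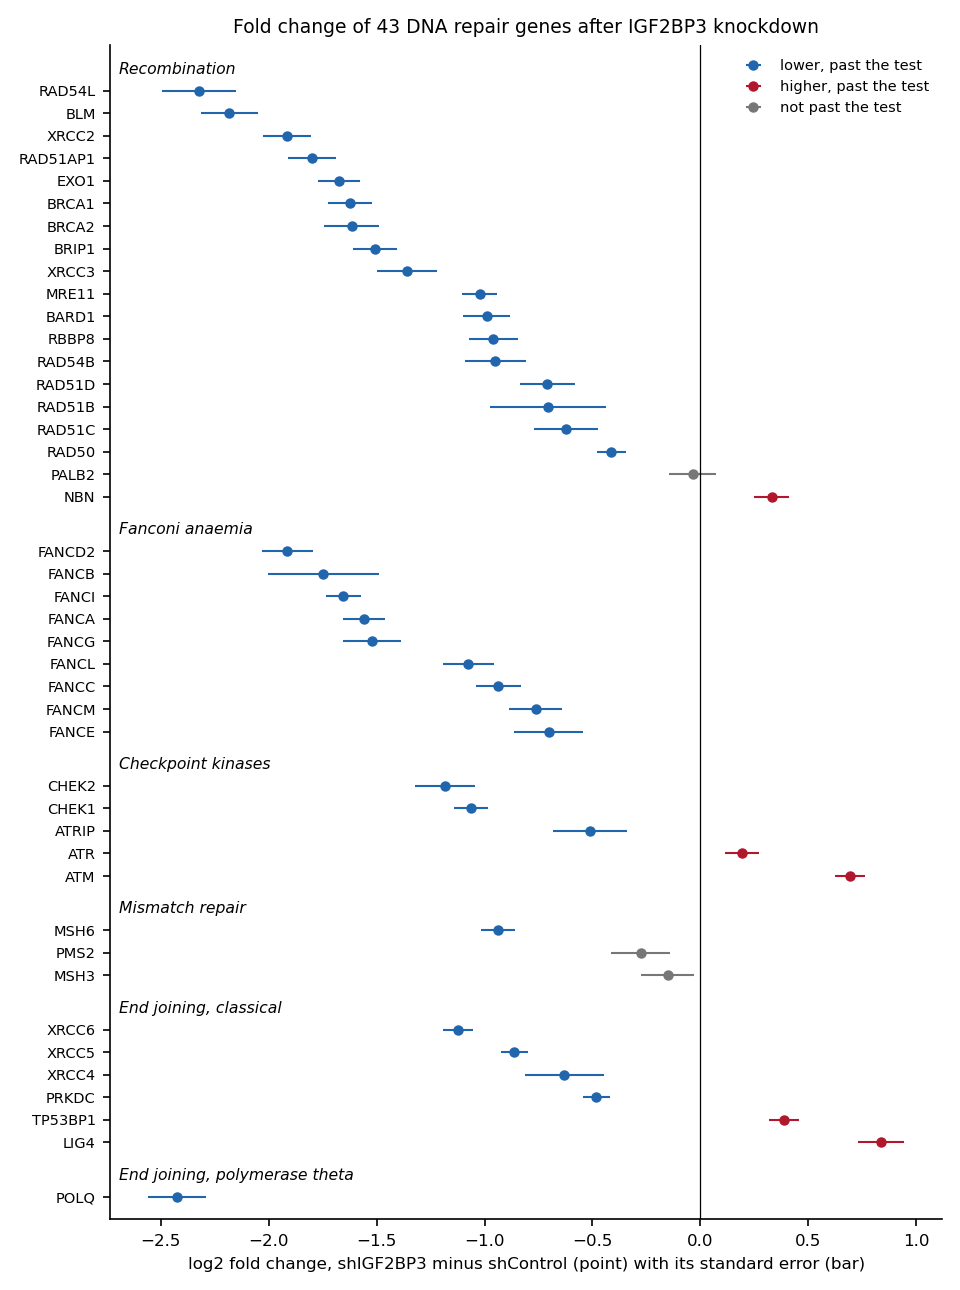
Fold change of each member on the log2 scale, shIGF2BP3 minus shControl, with its standard error as a bar, ordered within pathways. Blue members were lower and red members higher past the test, and grey members did not pass. POLQ lies at -2.43 and LIG4 at 0.84.

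Within recombination, the genes that load and assist the strand exchange machinery fell, with PALB2 as the exception. Library values of BARD1, BRCA2, BRIP1, RAD51B, RAD54L, MRE11, RAD50 and XRCC4 are given beside those of their partners, a choice made after their values were seen. BRCA1, a ubiquitin ligase subunit and mediator of recombination on the minus strand of chr17:43044295-43170245, stood at 23.0 and 23.9 CPM in shIGF2BP3 and at 77.0 and 67.7 CPM in shControl. Both knockdown libraries lay below both controls, and the fold change was -1.62 (SE 0.10, adjusted p = 4.23e-10, edgeR). Its partner BARD1 fell less, from 51.8 and 45.4 to 24.4 CPM in both knockdown libraries (log2 -0.99, SE 0.11). BRCA2, a mediator of strand exchange, had 17.0 and 13.7 CPM against 43.4 and 50.6 CPM (log2 -1.62, SE 0.13). The helicase BRIP1 binds BRCA1 and, like other genes counted here under recombination, is also a Fanconi gene. BRIP1 had 21.9 and 20.8 CPM against 63.0 and 58.9 CPM (log2 -1.51). PALB2, the bridge between BRCA1 and BRCA2, stood at 28.9 and 30.5 CPM against 31.5 and 29.5 CPM. The PALB2 groups overlapped, and its fold change was -0.04 with a 95% interval from -0.25 to 0.18 (adjusted p = 0.81, edgeR).

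XRCC2, XRCC3, RAD51B, RAD51C and RAD51D, accessory genes of strand exchange, all fell, over a wide range. XRCC2 had 18.5 and 16.8 CPM in shIGF2BP3 and 62.4 and 70.5 CPM in shControl (log2 -1.91, SE 0.11, adjusted p = 1.17e-10, edgeR). XRCC3 fell by 1.36, RAD51D by 0.71 and RAD51C by 0.62. RAD51B, the least abundant member, had 2.65 and 3.68 CPM against 4.49 and 5.72 CPM (log2 -0.70, adjusted p = 0.0363, edgeR). Leaving out shIGF2BP3 replicate 1 (adjusted p = 0.264, edgeR) or shControl replicate 2 (0.22) ended that call. It also ended with upper quartile scaling (adjusted p = 0.0517, edgeR), with library sizes alone (0.0679), with no filter on low counts (0.0976) and with DESeq2 (0.162). Of the other genes of strand exchange, the DNA motor RAD54L fell from 30.0 and 33.5 to 7.84 and 4.85 CPM (log2 -2.32, SE 0.17). RAD51AP1, a cofactor of strand invasion, fell from 47.7 and 48.1 to 13.8 CPM in both knockdown libraries (log2 -1.80, SE 0.11). RAD54B, a relative of RAD54L, fell by 0.95.

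Genes of end resection and of the later dissolution of joint molecules fell, except NBN. The helicase BLM, which dissolves joint molecules, had 8.93 and 8.49 CPM against 41.0 and 38.2 CPM (log2 -2.18, SE 0.13, adjusted p = 2.39e-10, edgeR). EXO1, the exonuclease of long-range resection and of mismatch repair, had 22.4 and 23.0 CPM against 75.5 and 69.9 CPM (log2 -1.68, SE 0.10). RBBP8, which starts resection together with the MRE11 complex, fell by 0.96. The 3 subunits of that complex moved apart. MRE11 fell by 1.02, from 130.8 and 121.1 to 59.0 and 65.0 CPM. RAD50 fell by 0.41, from 163.5 and 164.2 to 123.7 and 122.6 CPM. NBN, the subunit that recruits ATM, rose by 0.33 (SE 0.08, adjusted p = 0.00236, edgeR), from 69.2 and 64.15 to 84.7 and 82.7 CPM.

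In the Fanconi pathway the transcripts of both partners in the central ubiquitylated pair fell. FANCD2 had 12.1 and 11.9 CPM in shIGF2BP3 and 47.0 and 43.6 CPM in shControl (log2 -1.91, SE 0.12, adjusted p = 4.02e-10, edgeR). FANCI, the more abundant partner, fell from 159.0 and 147.5 to 49.98 and 47.3 CPM (log2 -1.65, SE 0.08, adjusted p = 1.46e-11, edgeR). In the core complex that ubiquitylates this pair, FANCA had 22.6 and 25.1 CPM against 69.2 and 71.3 CPM (log2 -1.56). FANCG had 11.5 and 10.4 CPM against 30.2 and 32.5 CPM (log2 -1.52), and the ubiquitin ligase subunit FANCL had 15.3 and 17.3 CPM against 34.2 and 34.5 CPM (log2 -1.07). FANCB, a subunit encoded on the X chromosome, fell by 1.75 from a mean of 8.98 CPM. FANCC fell by 0.94, the DNA translocase FANCM by 0.76 and FANCE by 0.70, the smallest change of the 9.

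The damage kinases and the kinases they activate moved in opposite directions. ATM, the kinase activated by double-strand breaks on the plus strand of chr11:108222484-108369102, stood at 347.8 and 388.4 CPM in shIGF2BP3 and at 222.5 and 232.7 CPM in shControl. Every knockdown library lay above every control library, with a fold change of 0.69 (SE 0.07, adjusted p = 1.57e-07, edgeR). CHEK2, which ATM phosphorylates, had 14.1 and 13.2 CPM against 34.2 and 28.0 CPM (log2 -1.18, SE 0.14, adjusted p = 1.09e-06, edgeR). CHEK1, the S and G2 phase kinase downstream of ATR, had 59.0 and 61.8 CPM against 130.9 and 121.8 CPM (log2 -1.06, SE 0.08). ATR, the kinase activated by single-stranded DNA, had 89.97 and 93.7 CPM against 83.2 and 77.5 CPM (log2 0.19, SE 0.08, adjusted p = 0.0469, edgeR). ATRIP, its obligate partner, had 8.51 and 7.87 CPM against 12.1 and 11.3 CPM (log2 -0.51, adjusted p = 0.0189, edgeR). Both of the latter calls were fragile. That of ATR ended without shIGF2BP3 replicate 1 (adjusted p = 0.0766, edgeR), without replicate 2 (0.208), where its fold change was 0.17, and without shControl replicate 2 (0.329), where it was 0.13. It also ended with RLE scaling (adjusted p = 0.0596, edgeR), with no filter on low counts (0.0696) and with DESeq2 (0.101), and ATR lost its call in 7 of 12 alternatives in all. That of ATRIP ended without either shIGF2BP3 replicate (adjusted p = 0.0506 and 0.11, edgeR), without shControl replicate 1 (0.0679) and with DESeq2 (0.0804).

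Mismatch repair was represented by MSH6, MSH3 and PMS2. MSH6, which recognises single mismatches, fell from 152.6 and 146.8 to 74.3 and 82.1 CPM (log2 -0.94, SE 0.08, adjusted p = 1.3e-08, edgeR). MSH3, which recognises larger loops, stood at 21.4 and 23.8 CPM against 23.7 and 26.3 CPM. The MSH3 groups overlapped, and its fold change was -0.15 with a 95% interval from -0.39 to 0.09 (adjusted p = 0.321, edgeR). PMS2, an endonuclease subunit, stood at 18.0 and 15.2 CPM against 20.1 and 20.2 CPM (log2 -0.28, adjusted p = 0.1, edgeR). Its 14 annotated pseudogenes together held 2231 counts over the 4 libraries, against 2101 for PMS2, so reads of the gene and its copies may have been split either way.

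In classical end joining transcripts of the abundant end-binding proteins fell and that of the ligase rose. XRCC6 and XRCC5 encode the Ku heterodimer that binds broken ends. XRCC6 fell from 499.5 and 451.8 to 227.2 and 209.2 CPM (log2 -1.12, SE 0.07, adjusted p = 3.69e-10, edgeR). XRCC5 fell from 669.8 and 626.8 to 344.8 and 368.6 CPM (log2 -0.86, SE 0.06). PRKDC, the kinase that Ku recruits, fell from 695.3 and 728.6 to 490.3 and 529.7 CPM (log2 -0.48, SE 0.06). LIG4, the ligase of the pathway on the minus strand of chr13:108207439-108218368, rose from 25.8 and 22.7 to 43.7 and 42.8 CPM. Its fold change of 0.84 (SE 0.11, adjusted p = 3.47e-06, edgeR) was the highest of the 43. XRCC4, which binds and stabilises LIG4, had 6.71 and 8.46 CPM against 12.5 and 11.1 CPM (log2 -0.63, SE 0.18, adjusted p = 0.00796, edgeR). Leaving out shIGF2BP3 replicate 1 ended the XRCC4 call (adjusted p = 0.104, edgeR). TP53BP1, which opposes resection, rose from 126.1 and 133.7 to 165.4 and 174.4 CPM (log2 0.39, SE 0.07, adjusted p = 0.000168, edgeR).

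POLQ encodes the polymerase that joins resected ends through short matching stretches. The gene, on the minus strand of chr3:121431427-121546641, stood at 9.04 and 7.33 CPM in shIGF2BP3 and at 44.0 CPM in both shControl libraries. Its fold change was -2.43 (SE 0.13, adjusted p = 7.33e-11, edgeR), so that the knockdown level was 18.6% of the control level.

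Ratios of counts between 2 genes of the same library do not depend on how libraries are scaled. They were computed for 14 pairs that were chosen after the fold changes were seen. The shift of a ratio follows from the 2 fold changes given above, so these ratios restate them and are no separate evidence. The share of all gene pairs that would not overlap is not given. In all 14 pairs the knockdown and control libraries did not overlap, but the smallest exact two-sided permutation p that 2 against 2 libraries allow is 0.333. NBN to MRE11 was 1.44 and 1.27 in shIGF2BP3 and 0.529 and 0.53 in shControl. LIG4 to XRCC4 was 6.51 and 5.06 against 2.07 and 2.06. PALB2 to BRCA2 was 1.70 and 2.23 against 0.725 and 0.583. Each of these pairs names proteins that work as a complex, and in each the ratio differed between groups by more than the spread between replicates. ATR to CHEK1 was 1.52 in both knockdown libraries against 0.635 and 0.636, and ATM to CHEK2 was 24.6 and 29.5 against 6.50 and 8.31. By construction, pairs whose genes fell alike shifted least. XRCC5 to XRCC6 was 1.52 and 1.76 against 1.34 and 1.39, and FANCD2 to FANCI was 0.242 and 0.252 against 0.295 and 0.296. BRCA1 to TP53BP1, genes that act against each other at broken ends, was 0.139 and 0.137 against 0.611 and 0.506, a 4.03-fold shift.

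**Figure D3:**
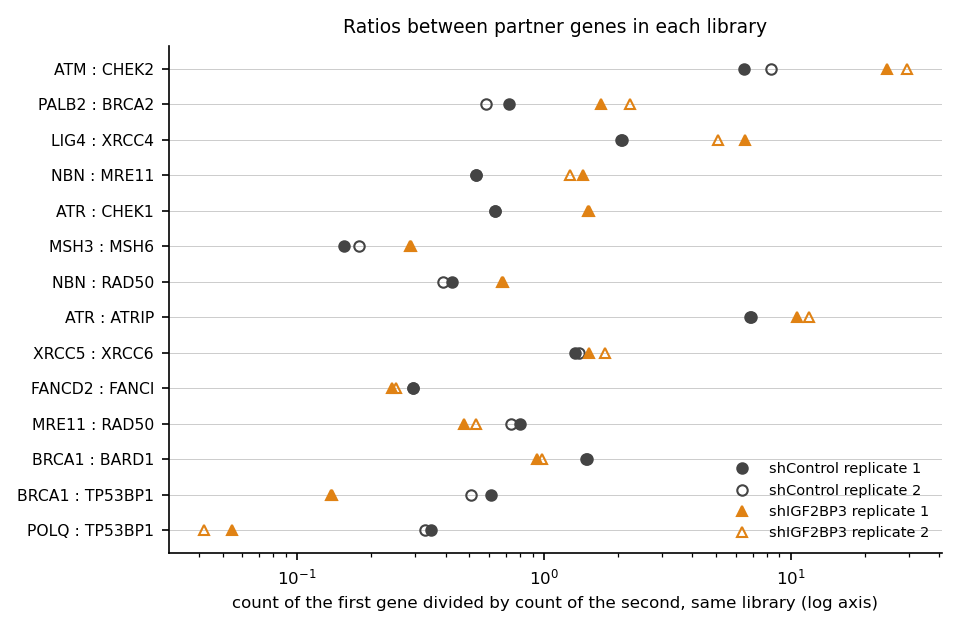
Count of the first gene divided by the count of the second in the same library, on a log axis, for 14 pairs of members. Circles are shControl and triangles shIGF2BP3, filled for replicate 1 and open for replicate 2, and no pair has overlapping groups.

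Levels were compared between genes as CPM per kilobase of merged exons. In shControl the 3 highest were XRCC6 at 144.7 ± 10.3, XRCC5 at 118.7 ± 5.56 and PRKDC at 46.2 ± 1.53 CPM per kilobase (SD, n = 2 each). FANCI followed at 19.7 ± 1.05 and CHEK1 at 19.3 ± 0.982 CPM per kilobase, and these 2 genes overlapped. The lowest were ATRIP at 2.16 ± 0.0949 and RAD51B at 0.683 ± 0.116 CPM per kilobase. Of 42 neighbouring pairs in this order, 27 had overlapping shControl libraries, so much of the middle order is not resolved. ATM moved from rank 16 to rank 4 after knockdown, LIG4 from 28 to 8 and NBN from 13 to 5, while RAD54L moved from 15 to 33 and BLM from 27 to 39. These ranks hold for merged exon length. In shControl, Spearman's rho with levels per kilobase of the longest transcript was 0.927, and single ranks differ between the lengths. Across the 43 genes, Spearman's rho between the shControl level per kilobase and the fold change was -0.11, a description over genes that share libraries.

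Summed over the 43 members, the level was 641.8 ± 19.3 CPM per kilobase in shControl and 354.6 ± 2.86 in shIGF2BP3 (SD, n = 2 each). Classical end joining held 51.9% and 50.8% of that sum in the control libraries and 53.7% and 53.8% in the knockdown libraries, most of it as XRCC5, XRCC6 and PRKDC. Recombination genes held 25.8% and 26.1% in the controls and 23.1% and 22.6% after knockdown. Fanconi genes held 11.0% and 11.8% against 8.38% and 8.30%. Checkpoint genes held 6.98% and 6.82% in the controls and a larger share, 10.05% and 10.5%, after knockdown. Among them the mean level of ATM rose from 9.49 to 15.4 CPM per kilobase and that of ATR from 6.43 to 7.35. CHEK1, CHEK2 and ATRIP fell from 19.3, 6.92 and 2.16 to 9.21, 3.04 and 1.51 CPM per kilobase. Mismatch repair genes held 3.67% and 3.83% against 4.50% and 4.59%. POLQ held 0.714% and 0.746% against 0.273% and 0.219%. Libraries of the groups did not overlap in any of these shares, which are descriptions with no test. The summed level itself was lower in both knockdown libraries for every pathway, also where the share was larger. For checkpoint genes it fell from 45.7 and 42.8 to 35.4 and 37.5 CPM per kilobase.

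Other repair genes, taken by name into lists of the same pathways and of base and nucleotide excision repair, were also lower more often than higher, but unevenly. Of 110 such genes tested 57 fell (51.8%) and 13 rose, 40 were not past the threshold, and the median was -0.31. Among all tested genes 25.6% were lower and 25.9% higher. Among protein-coding genes in the members' range of mean CPM these shares were 35% and 31.6%. The shares lower of nucleotide excision (36.8%), further Fanconi (38.5%) and further end joining genes (23.1%) lay near these backgrounds. In the list of other recombination and resection genes 13 of 21 fell and 2 rose (median -0.87), with the helicase ZGRF1 at -2.14, the BLM partner RMI1 at -1.40 and the resolvase GEN1 at -0.99. In checkpoint and break signalling 13 of 19 fell and 0 rose (median -0.41), with WEE1 at -1.91, TIMELESS at -1.41 and the histone H2AX at -1.23. Of 11 further genes of mismatch repair, 9 fell and 0 rose (median -1.22), and these 9 are clamp loader, polymerase delta and ligase genes shared with DNA replication. RFC5 stood at -1.84, RFC3 at -1.66 and POLD1 at -1.70 there. Of 13 further Fanconi genes 5 fell and 3 rose (median -0.04), with UBE2T at -0.94, FAAP100 at -1.01 and USP1 at -0.61. Of 13 further end joining genes 3 fell and 3 rose (median -0.16), with RIF1 at -0.54, LIG3 at -0.29 and POLM at 0.46. Base excision repair, which replaces damaged bases, had 7 of 14 lower and 1 higher (median -0.23), with UNG at -2.20, TDG at -1.07 and NEIL3 at -1.69. Nucleotide excision repair, which removes bulky lesions, had 7 of 19 lower and 4 higher (median 0.01), with ERCC3 at -0.61, RAD23B at -0.47 and ERCC8 at -0.84.

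**Figure D4:**
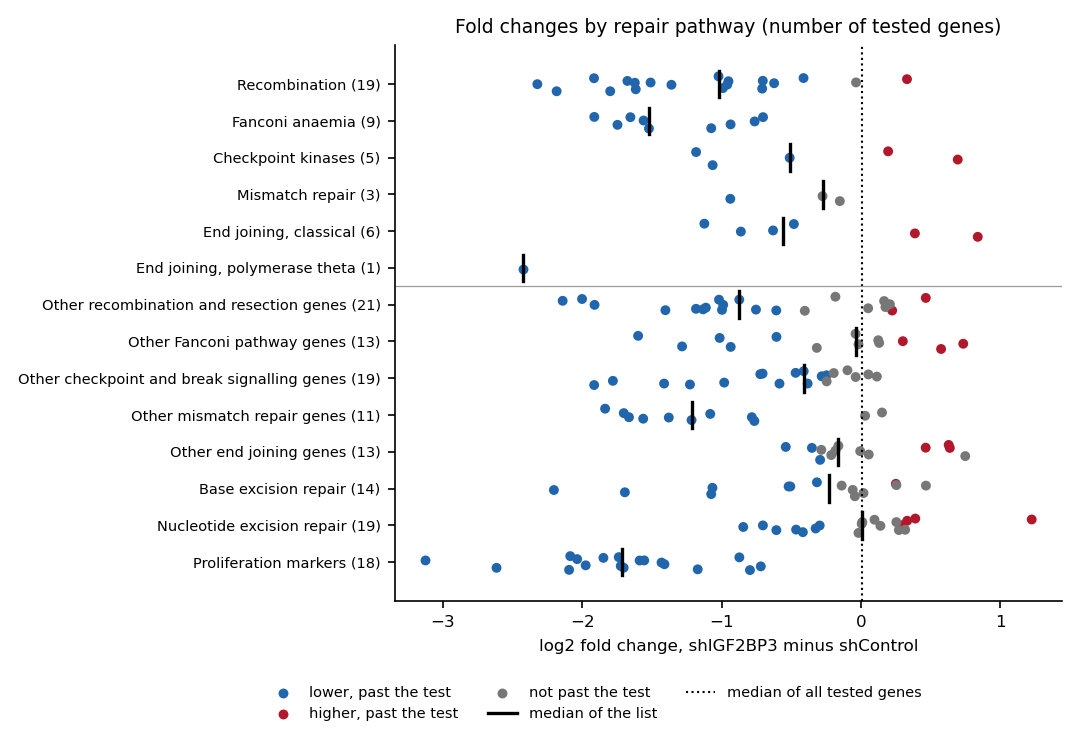
Fold change of every tested gene by pathway, log2, shIGF2BP3 minus shControl, with the members above the grey line and the other lists below it. Points are genes coloured by their call, black bars are list medians and the dotted line is the median of all tested genes at 0.01. Fanconi members have a median of -1.52 and nucleotide excision repair genes one of 0.01.

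Genes that mark dividing cells moved with the repair genes. Of 18 proliferation markers 18 fell, with a median of -1.71, and their summed level was 1520.1 and 1500.1 CPM in shIGF2BP3 against 4681 and 4519 CPM in shControl. PLK1 stood at -2.61, CDK1 at -2.09 and TOP2A at -1.72. The part of cell proliferation in the fall of the members was not tested.

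Promoter windows of the members were read from RefSeq on GRCh38.p14, from 250 bases before to 50 bases from the start site on. Of the 43 members 38 had a window, and 14 of these had more than 1, with 58 windows in all. RAD54B, FANCI, PRKDC, XRCC5 and NBN had none. The windows were searched on both strands for the E2F words TTTCCCGC, TTTCGCGC, TTTGCCGC and TTTGGCGC, some of which overlap as reverse complements. A word was present in 9 of 38 members, which is 23.7% (95% exact interval 11.4% to 40.2%), and in 5.44% of 15220 protein-coding genes with a window. A gene counted if any of its windows held a word, and windows per gene were not compared between members and other genes. Of the members that fell 7 of 31 held a word, of those that rose 0 of 4, and of those that did not pass 2 of 3. Among all tested protein-coding genes with a window 6.28% held a word, 8.66% of those that fell and 4.48% of those that rose. Counting only bases before the start site gave 10.5% of members (95% exact interval 2.94% to 24.8%) and 4.63% of protein-coding genes. In EXO1, MSH6, XRCC2 and XRCC6 the word starts after the start site, and in FANCD2 it spans it. Of the members that fell 2 of 31 (6.45%) then held a word, against 7.08% of tested protein-coding genes that fell. The other members with a word there were MSH3 and PMS2, which did not pass. The sequences below show where the word, in capitals, lies in 5 members that fell and in PMS2, which did not pass. FANCC, XRCC6 and MSH3 also hold words and are not shown. Each runs 5′ to 3′ on the strand of the gene.
FANCD2 (chr3:10026425-10026452, plus strand): gtcgggcctgGCGGGAAAgtcgaaaact
XRCC2 (chr7:152676103-152676130, minus strand): ggcgttggtgGCGGGAAAgttgagtctc
EXO1 (chr1:241848198-241848225, plus strand): aaggtcagccTTTCGCGCgctgtgtagg
FANCA (chr16:89816802-89816829, minus strand): ctacaccgcgGCGGCAAAgccaaacgca
MSH6 (chr2:47783138-47783165, plus strand): tccccccagaTTTCCCGCcagcaggagc
PMS2 (chr7:6009132-6009159, minus strand): gggaagtattTTTGCCGCcccgcccgga

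In FANCD2 and XRCC2 the capitals are TTTCCCGC read as its reverse complement, and in FANCA they are TTTGCCGC read so. E2F1 stood at 38.2 and 34.3 CPM in shIGF2BP3 against 92.7 and 104.6 CPM, and E2F2 at 24.7 and 22.9 CPM against 73.9 and 80.0 CPM. The short words TTTGAA and TTCGAA of the cell cycle homology region were present in 4 of 38 members (10.5%) and in 17.5% of protein-coding genes. Their holders were POLQ, BRIP1 and FANCC, which fell, and ATM, which rose. A match describes letters in a window and is no evidence of binding.

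Some members share exons with other genes, and the strand setting of the counting is not given in the sources used here. XRCC3 shares 76.7% of its exon bases with KLC1 on the opposite strand, which held 19467 counts over the 4 libraries against 2257 and fell by 0.45. TP53BP1 shares 28.7% with TUBGCP4, which fell by 0.71 while TP53BP1 rose. FANCA shares 23.6% with ZNF276, which rose by 0.74 while FANCA fell. RAD54L shares 25.1% with LRRC41 (log2 0.09, not past the test), FANCL 18.7% with VRK2 (-0.32, not past) and MSH6 16.2% with FBXO11 (-0.14, not past). ATRIP shares 27.9% with TREX1 on the same strand, which fell by 1.23. These 7 share at least 10% of their exon bases with a gene that held at least 100 counts over the 4 libraries. RAD50 (79.7% shared with AC116366.3, which was not analysed here), RAD54B (59.1% shared with FSBP, 15 counts) and ATR (16.4% shared with AC109992.1, 0 counts) were kept. Without the 7 members 29 fell and 4 rose, with 1 higher member left in classical end joining and 0 lower in mismatch repair.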

How the data were processed

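RNA was sequenced from 2 shIGF2BP3 and 2 shControl libraries of SK-N-BE(2) cells. The authors deposited whole-number counts per gene, and the submitters' processing notes name HISAT2 2.2.0, StringTie and the build hg38. How reads were counted, with which annotation and strand setting, is not given in the sources used here. Counts from StringTie would be coverage estimates, rounded. Counts were analysed with edgeR 4.0.16 in R 4.3.3 using filterByExpr (minimum count 10), TMM scaling and the quasi-likelihood test, with Benjamini-Hochberg adjustment over 19767 genes and a threshold of 0.05. The common biological coefficient of variation was 12.6%, on 2 residual degrees of freedom. The test also borrowed spread from other genes, with a median of 15.1 prior degrees of freedom. Standard errors were derived from the test statistic. The 95% intervals of fold changes used the normal distribution and are slightly narrower than the test implies. A level of 3 counts corresponds to 0.0958 to 0.111 CPM, which covers counting error only. Symbols came from a separate list of gene names (56105 genes), with 486 more from GENCODE. Coordinates and exon lengths came from GENCODE on GRCh38, and promoters from RefSeq on GRCh38.p14.

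The members and all gene lists were chosen with earlier results of these data known. All 43 members could be named. Library values were given for members that rose or did not pass and for up to 5 members with the smallest p in each pathway. Up to 3 genes with the smallest p were named from each other list. Alternatives were RLE, upper quartile and library size scaling, no filter, DESeq2 1.42.0, limma 3.58.1 (voom), a replicate block, a fold change minimum, other lengths and windows, and leaving out each library. The fitting script was tested on simulated data. Some items are not reported here.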

Additional observations from a re-analysis of the deposited data

How the results depend on the processing

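Of the 43 members 39 kept their call under all 12 alternatives run for each gene. ATR, RAD51B, ATRIP and XRCC4 did not, and the cause was not tested. PALB2, which passed the test in no alternative, did not keep its direction, with fold changes from -0.10 to 0.04. With 1 library left out, 32 to 34 members were lower and 4 to 5 higher, checkpoint genes higher numbered 1 to 2, the members' median lay between -1.05 and -0.91, and the mismatch repair median between -0.40 and -0.23. A group left with 1 library was assumed to vary like the other. Higher checkpoint genes numbered 1 with RLE scaling, with no filter and with DESeq2. The members' median was -0.91 with upper quartile scaling and -0.88 with library sizes alone. The replicate numbers were not read as pairs (correlation of same-numbered deviations 0.021); a replicate block gave 10509 genes past the test, 35 members lower, 4 higher and 1 higher checkpoint gene, since ATR missed the threshold (adjusted p = 0.0671, edgeR). When a fold change past 1 on the log2 scale was also required, 3856 genes passed, 2046 higher and 1810 lower, by construction fewer. Members then numbered 20 lower and 0 higher, recombination 10 lower and 0 higher, checkpoint 0 higher, mismatch repair 0 lower, and classical end joining 1 lower and 0 higher. Without the 7 members that share at least 10% of their exon bases with a gene of at least 100 counts, an alternative chosen after seeing the data, mismatch repair had 0 lower and classical end joining 1 higher. With the longest transcript as length, shares in shControl and shIGF2BP3 were 24.3% and 21.7% for recombination, 13.0% and 9.32% for Fanconi, 8.44% and 12.8% for checkpoint, 49.8% and 51.4% for classical end joining and 0.569% and 0.19% for POLQ, and mismatch repair held 3.88% in shControl. E2F words lying only before the start site were present in 10.5% of members. Among members that fell the share was 6.45%, against 7.08% of tested protein-coding genes that fell. An older edgeR fit, also chosen after seeing the data, called 9894 genes, DESeq2 8539 and edgeR without the filter 8757, against 10178. With 2 libraries a group no ratio could reach an exact p below 0.333.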
